A study of Mus musculus with 11 samples.

Results

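The genes of oxidative phosphorylation were followed in mouse fetal germ cells and in the other cells of the gonad. Members were taken by name from the annotation of an Illumina BeadChip: symbols starting with Nduf, Uqcr, Cox4, Cox5, Cox6, Cox7, Cox8 or Atp5, and Sdha, Sdhb, Sdhc and Sdhd. Probes entered with a detection p-value under 0.01 on 2 or more of 11 arrays. That left 119 of 135 probes by name and 83 of 87 genes, among 21943 kept probes and 11598 genes in all. Each gene was represented by its kept probe with the highest mean. The members comprise 36 genes of complex I, 7 complex I assembly factors, 4 genes of complex II, 7 of complex III, 13 of complex IV and 16 of complex V.

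All animals carried the Pou5f1-GFP reporter, and the labels give their strain as (CBA/CaJ X C57BL/6J)F16+ crossed to Hsd:ICR(CD-1). Germ cells were the GFP-positive cells sorted from gonads at embryonic stages E11.5, E13.5 and E15.5, with 3 arrays per stage. The E11.5 samples are labelled male/female and those of both later stages male. Cells of E13.5 male gonads without GFP gave 2 arrays. That fraction is called non-germ cells, a mixture of all other gonadal cell types. It was sampled at E13.5 only. Wherever germ cells of E11.5 or E15.5 are set beside it, stage and cell type both differ, and no such difference was fitted. The E11.5 group differs from the later groups in sex as well as in age, so the effects of stage and of sex cannot be told apart there. The labels name biological replicates and not how many embryos entered each.

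Oxidative phosphorylation takes place in the inner mitochondrial membrane. Complexes I and II pass electrons from NADH and succinate to coenzyme Q, complex III passes them to cytochrome c, and complex IV passes them to oxygen. Complexes I, III and IV pump protons, and complex V, the ATP synthase, uses the return of protons to make ATP. The nuclear genome encodes most subunits and the mitochondrial genome a few central ones. Some complex IV subunits have isoforms known from heart and skeletal muscle or from testis.

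Levels are background-corrected, quantile-normalized log2 intensities. Differences are differences of group means on that scale with the standard error of a limma fit over all 11598 genes, and a gene is said to have risen, fallen or differed only at a Benjamini-Hochberg adjusted p below 0.05. Arrays were scaled to each other, so in these bulk samples fewer cells of a type and less RNA per cell cannot be told apart. The level of a probe was not set against that of another probe.

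Between 14860 and 18657 probes were detected per array. The 13 germ cell markers averaged 10.46 to 11.68 on the germ cell arrays and 5.76 and 5.77 on the non-germ arrays, where 4 and 5 of them were detected. E15.5 replicate 2 stood apart from the other E15.5 arrays. Its 11 interstitial and mesenchymal markers averaged 9.66, all detected, against 6.28 and 6.29 on the other E15.5 arrays, 5.55 to 6.22 at E11.5 and E13.5, and 10.53 and 10.62 in non-germ cells. Its 12 Sertoli cell markers averaged 7.77 against 5.96 and 6.50, and its 8 fetal Leydig cell markers 8.81 against 6.08 and 5.95. The part of such cells in the results was not tested, and counts of members and of the supporting gene lists are also given without that array.

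Most genes of this machinery had higher levels in E13.5 germ cells than in their non-germ neighbours, and more of them fell than rose in germ cells by E15.5. In the first comparison, 56 of 83 members were higher in germ cells than in non-germ cells and 0 were lower, against 30.8% and 26.2% of all genes. From E13.5 to E15.5, 39 members fell and 8 rose, against 21.4% and 21.2% of all genes. From E11.5 to E13.5, 3 fell (3.61%) and 2 rose (2.41%), below the 7.94% and 10.8% of all genes. The latter count of falls was 9 to 13 under 3 other settings of the processing, where more of all genes fell as well. The mean over all 83 members was 10.45, 10.45 and 10.41 on the E11.5 arrays, 10.33, 10.27 and 10.35 at E13.5, then 9.89, 9.82 and 9.95 at E15.5, with 9.56 and 9.61 in non-germ cells. No group overlapped another in that mean. The mean over all 11598 genes ran from 7.88 to 8.07.

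**Figure D1:**
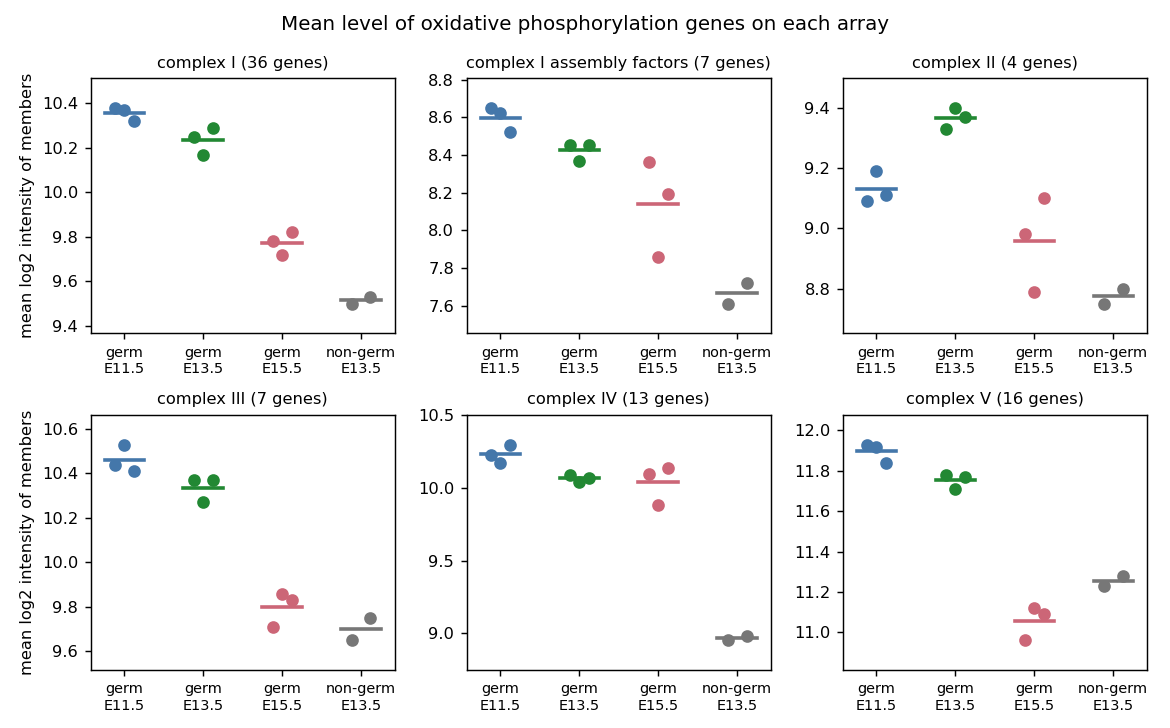
Mean log2 intensity of the member genes of each complex (vertical axis, with a different range in each panel) on each of the 11 arrays (points) by group, with the group mean as a bar. At E15.5 complex V ran from 10.96 to 11.12, below the non-germ arrays at 11.23 and 11.28. Complex IV was at 9.88 to 10.14, against 8.95 and 8.98 in non-germ cells. Its mean includes the rises of Cox7b2 and Cox8c to E15.5, while 4 of its 13 genes fell.

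The mean levels of the complexes differed in their course, as a description that was not tested. Complex I averaged 10.38, 10.37 and 10.32 at E11.5, then 10.25, 10.17 and 10.29 at E13.5, then 9.78, 9.72 and 9.82 at E15.5, with 9.50 and 9.53 in non-germ cells. Its E15.5 arrays lay between the earlier germ cells and the non-germ cells. The mean of complex III went from between 10.27 and 10.37 at E13.5 to between 9.71 and 9.86 at E15.5, against 9.65 and 9.75 in non-germ cells. E15.5 and non-germ arrays overlapped there. Complex V averaged 11.93, 11.92 and 11.84, then 11.78, 11.71 and 11.77, then 10.96, 11.12 and 11.09 over the 3 stages, and 11.23 and 11.28 in non-germ cells. All 3 E15.5 arrays lay below both non-germ arrays.

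The mean of complex II was highest at E13.5, with 9.09, 9.19 and 9.11 at E11.5, then 9.33, 9.40 and 9.37 at E13.5, then 8.98, 8.79 and 9.10 at E15.5, with 8.75 and 8.80 in non-germ cells. That mean of 4 genes was not tested. From E11.5 to E13.5 only Sdha was called, and 14 of 21 settings lost that call. Sdhb, Sdhc and Sdhd differed by 0.19, 0.17 and 0.11 with no call.

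The mean of complex IV was 10.23, 10.17 and 10.30, then 10.09, 10.04 and 10.07, then 10.10, 9.88 and 10.14 in germ cells, and 8.95 and 8.98 in non-germ cells. Its E13.5 and E15.5 arrays overlapped, and within that mean single isoforms rose and others fell. Cox7b2 and Cox8c, undetected in non-germ cells, rose by 2.33 and 2.01 from E13.5 to E15.5. The 8 widely expressed subunits had a median difference of -0.36 over that interval, and 3 of them fell. The 7 complex I assembly factors averaged 8.65, 8.62 and 8.52, then 8.45, 8.37 and 8.45, then 8.36, 7.86 and 8.19, and 7.61 and 7.72 in non-germ cells, with E15.5 replicate 2 the lowest of the germ cell arrays.

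**Figure D2:**
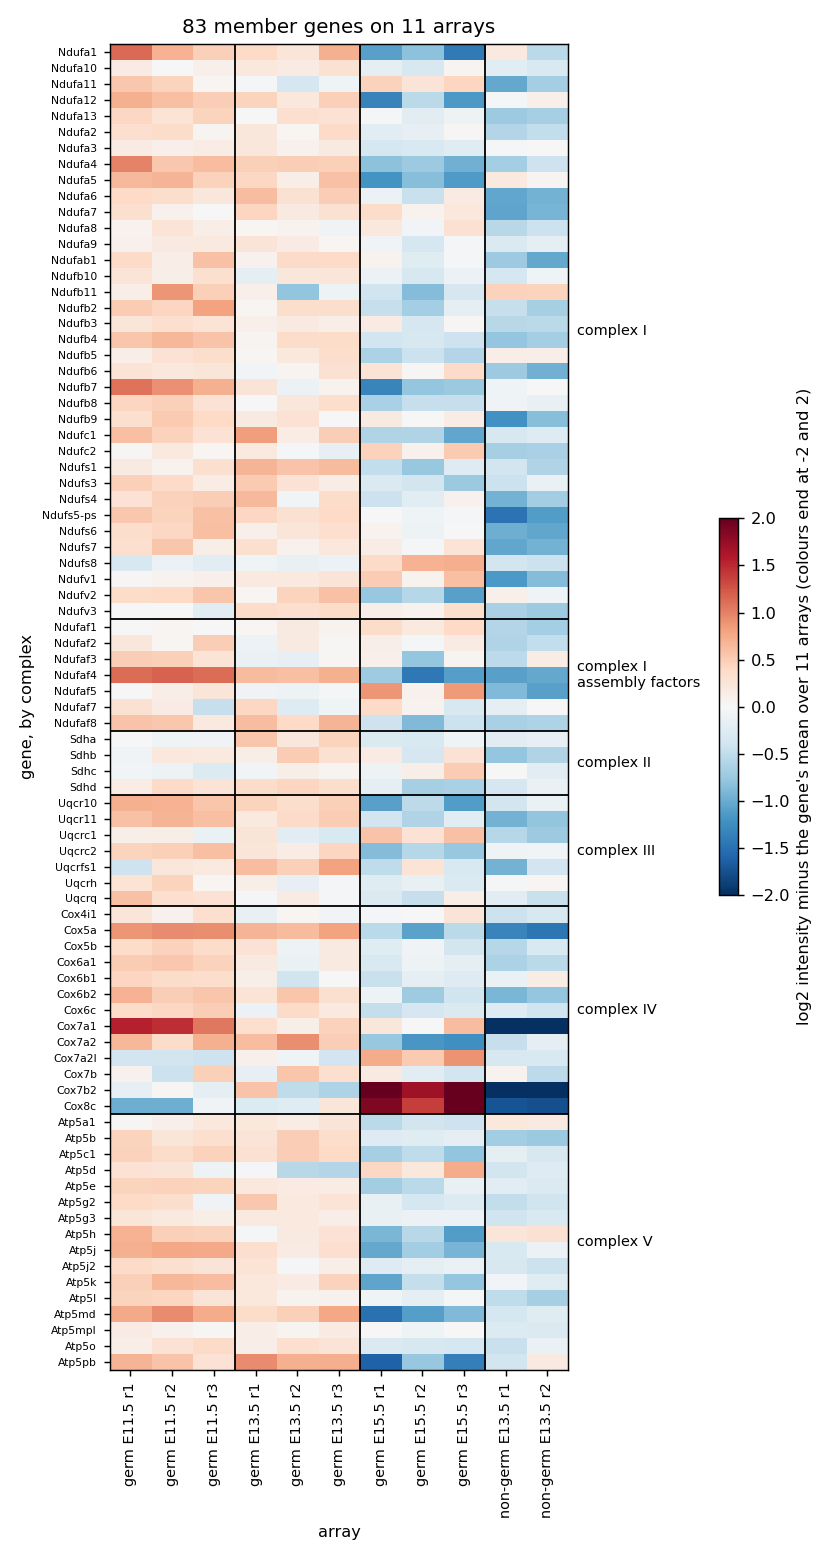
Log2 intensity of each of the 83 member genes (rows, grouped by complex) on each of the 11 arrays (columns), minus that gene's mean over the arrays. Most rows are lowest in the E15.5 or the non-germ columns, and Cox7b2 and Cox8c are highest at E15.5.

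Upstream sequence was compared because many respiratory genes are known to carry sites for the nuclear respiratory factors NRF1 and GABP, for YY1 and for the estrogen-related receptors (ERR). RefSeq promoters of build GRCm38.p6, from 250 bases before to 50 bases after the gene start, matched 71 of the 83 members. Both strands were searched for the NRF1 motif, CCGGAAG (GABP), AAGATGGC (YY1) and TCAAGGTCA (ERR). The NRF1 letters stood in 25.4% of the members' promoters and in 11.2% of the promoters of 9369 tested genes. For GABP the shares were 25.4% and 19.2%, for YY1 11 of 71 and 5.17%, and for ERR 2.82% and 0.278%. By complex, NRF1 letters were present in 6 of 14 complex V genes, 6 of 32 complex I genes and 1 of 10 complex IV genes. A match describes letters and is not a bound site. The 5 promoters below belong to members described later and were chosen after their values were seen: 3 genes that fell from E13.5 to E15.5 (Ndufaf4, Sdhd and Atp5h) and 2 that rose (Ndufs8 and Cox7b2). Each is read 5′ to 3′ on the gene's strand, with matches in capitals and positions counted from 1 at the left end. Ndufaf4 is at chr4:24897833-24898132 on the plus strand, with NRF1 letters at 138 to 147. Sdhd is at chr9:50603800-50604099 on the minus strand, with NRF1 at 172 to 181, GABP at 205 to 211 and ERR at 287 to 295. Atp5h is at chr11:115419870-115420169 on the minus strand, with NRF1 at 110 to 119 and GABP at 213 to 219. Ndufs8 is at chr19:3912725-3913024 on the minus strand, with GABP at 266 to 272. Cox7b2 is at chr5:71548156-71548455 on the minus strand, with none of the 4 motifs. None of the printed matches overlap.
Ndufaf4: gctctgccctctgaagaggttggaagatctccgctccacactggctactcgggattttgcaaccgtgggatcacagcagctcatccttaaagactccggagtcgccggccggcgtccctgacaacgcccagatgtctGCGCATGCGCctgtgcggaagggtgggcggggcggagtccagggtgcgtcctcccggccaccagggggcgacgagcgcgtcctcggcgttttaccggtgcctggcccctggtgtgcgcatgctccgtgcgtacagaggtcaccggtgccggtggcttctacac
Sdhd: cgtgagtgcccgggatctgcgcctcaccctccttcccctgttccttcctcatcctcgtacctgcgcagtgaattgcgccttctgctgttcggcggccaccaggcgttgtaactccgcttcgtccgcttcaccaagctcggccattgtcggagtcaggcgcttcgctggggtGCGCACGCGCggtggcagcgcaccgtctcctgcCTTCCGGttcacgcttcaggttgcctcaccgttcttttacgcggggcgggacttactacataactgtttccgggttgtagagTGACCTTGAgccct
Atp5h: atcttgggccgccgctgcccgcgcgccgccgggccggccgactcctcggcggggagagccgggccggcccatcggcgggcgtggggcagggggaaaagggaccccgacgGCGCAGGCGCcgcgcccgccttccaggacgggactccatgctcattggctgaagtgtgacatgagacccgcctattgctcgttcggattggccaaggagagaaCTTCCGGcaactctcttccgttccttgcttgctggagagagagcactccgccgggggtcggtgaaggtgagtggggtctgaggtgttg
Ndufs8: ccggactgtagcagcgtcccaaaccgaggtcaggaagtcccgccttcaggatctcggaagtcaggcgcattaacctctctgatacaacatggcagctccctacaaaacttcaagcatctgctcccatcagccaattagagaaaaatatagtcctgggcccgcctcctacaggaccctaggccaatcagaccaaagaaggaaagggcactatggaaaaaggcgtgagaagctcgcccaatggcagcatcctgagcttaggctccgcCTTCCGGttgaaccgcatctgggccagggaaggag
Cox7b2: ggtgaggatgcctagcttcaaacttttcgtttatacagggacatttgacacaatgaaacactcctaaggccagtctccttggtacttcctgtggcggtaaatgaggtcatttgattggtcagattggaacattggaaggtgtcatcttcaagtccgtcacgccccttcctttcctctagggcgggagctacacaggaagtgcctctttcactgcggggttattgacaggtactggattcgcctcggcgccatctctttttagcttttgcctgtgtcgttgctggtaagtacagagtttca

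From E13.5 to E15.5, 39 of 83 members (47%) fell and 8 (9.64%) rose, against 21.4% of all genes that fell and 21.2% that rose. The median difference of the members was -0.38 on the log2 scale, and that of all genes 0.02. At least 2-fold, 20 members fell and 2 rose, against 9.84% and 12.3% of all genes. Groups did not overlap for 49 members that were lower and 9 that were higher at E15.5, against 25.6% and 25.5% of all genes. Without E15.5 replicate 2, 38 members fell and 9 rose, against 21.8% and 22.4% of all genes, and the median was -0.34. Marker lists moved over the same interval. Of 13 germ cell markers, 7 fell and 1 rose, with a median of -0.73, and the same numbers were called without E15.5 replicate 2. The 5 erythroid markers averaged 5.25, 5.62 and 5.48 at E13.5, and 6.56, 8.85 and 6.60 at E15.5. The 5 leukocyte markers averaged 5.98, 5.65 and 5.85, and 6.60, 6.74 and 6.21. Both list means were higher on all 3 E15.5 arrays. Of the 5 erythroid markers 3 had a positive difference and 2 rose, and of the 5 leukocyte markers 4 and 2. On the E15.5 arrays 2, 3 and 3 erythroid and 2, 4 and 1 leukocyte markers were detected. Of the 12 Sertoli cell markers 2, 9 and 7 were detected there, against 1, 3 and 4 at E13.5. The part of these lists in the members' falls was not tested. Of the 39 falls 38 were called again without E15.5 replicate 2, as were all 8 rises. Without E13.5 replicate 2 or 3, or E15.5 replicate 1 or 3, 5 members rose. With cyclic loess scaling, 36 of the 39 falls and all 8 rises were called, the medians were -0.27 for the members and 0.13 for all genes, and 16.5% of all genes fell and 25.6% rose.

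**Figure D3:**
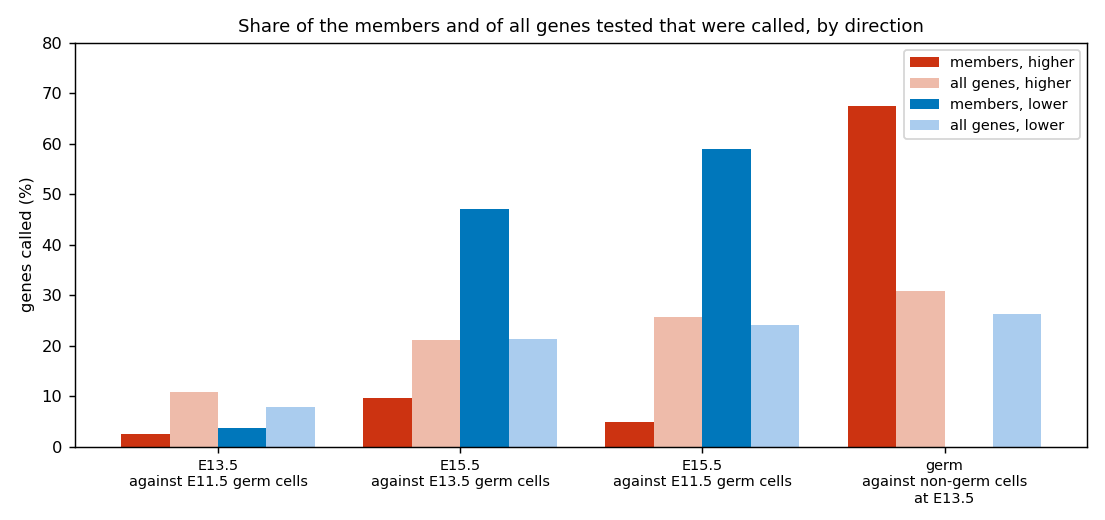
Share of genes called (percent, vertical axis from 0) in each of the 4 comparisons, for the 83 members and for all 11598 genes, split by direction. The members exceed all genes in the falls to E15.5 and in the share with higher levels in the germ cells.

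By complex, the falls were 16 of 36 complex I genes (median -0.37), 4 of 7 complex III genes (-0.76), 4 of 13 complex IV genes (-0.27) and 11 of 16 complex V genes (-0.62). In complex II 2 of 4 genes fell, and of the assembly factors 2 of 7. The rises were 2 genes of complex I, 3 of complex IV, and 1 each of complexes III and V and the assembly factors. The shares over all genes were 21.4% for falls and 21.2% for rises. Complex IV, with 30.8% and 23.1% of 13 genes, was near these, as were the assembly factor falls, with 28.6% of 7 genes. Differences between complexes were not tested.

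Brightness of the probe was compared as well. Of the 45 members with a mean of at least 10, 40% fell, against 24.9% of the 1885 genes at that level. Of the 38 dimmer members 55.3% fell, against 20.7% of dimmer genes.

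In complex I, the 6 core subunits, which carry the flavin and iron-sulfur centres, split into 3 falls, 1 rise and 2 with no call. Ndufs1, the largest of them, was at 8.48, 8.37 and 8.42 at E13.5 and then at 7.31, 7.04 and 7.54 at E15.5. It fell by 1.13 ± 0.16 on the log2 scale (SE, n = 3 and 3, adjusted p = 0.000341). Ndufv2, which holds an iron-sulfur cluster of the NADH-binding arm, fell by 1.15 ± 0.19 (adjusted p = 0.00079) and Ndufs3 fell by 0.79 ± 0.18 (adjusted p = 0.00553). Ndufs8 went the other way. This iron-sulfur subunit was at 9.58, 9.52 and 9.56 at E13.5 and then 10.05, 10.37 and 10.40 at E15.5, with no overlap, a difference of 0.72 ± 0.14 (adjusted p = 0.00246). Its E11.5 arrays measured 9.36, 9.55 and 9.46 and its non-germ arrays 9.31 and 9.25, so E15.5 was above every other array. Ndufv1, the subunit that binds NADH, differed by 0.18 ± 0.16 (adjusted p = 0.414) and Ndufs7 by -0.08 ± 0.16 (adjusted p = 0.724). The core subunits other than Ndufs8 were chosen for naming after their values were seen.

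Among the 28 supernumerary complex I subunits, which surround the core, 12 fell and 1 rose. Ndufa1, which is encoded on the X chromosome and needed for assembly, had the largest fall of the complex. It measured 8.31, 7.87 and 7.66 at E11.5, then 7.58, 7.42 and 7.89 at E13.5, then 6.09, 6.35 and 5.77 at E15.5, with 7.37 and 6.64 in non-germ cells. E15.5 lay below all other arrays, and only 1 of its 3 arrays detected the gene. The fall from E13.5 was -1.56 ± 0.25 (adjusted p = 0.000686). Ndufa5 measured 10.24, 9.96 and 10.42 at E13.5 against 8.63, 8.98 and 8.69 at E15.5, with 10.02 and 9.88 in non-germ cells, and fell by 1.44 ± 0.17 (adjusted p = 9.04e-05). Ndufa12 went from 12.28, 12.05 and 12.31 to 10.51, 11.30 and 10.69, a fall of 1.38 ± 0.20 (adjusted p = 0.000374), with E15.5 replicate 2 the highest of the 3. All E15.5 arrays of both genes were below both of their non-germ arrays, at 11.82 and 11.95 for Ndufa12.

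Ndufa4, named as a complex I gene and now assigned to complex IV, was nearly the same on all 3 E13.5 arrays. It was at 10.53, 10.54 and 10.53 at E13.5 and then at 9.24, 9.33 and 9.10 at E15.5, a fall of 1.31 ± 0.16 (adjusted p = 0.000122). The rise was that of Ndufa11, a membrane-arm subunit, by 0.53 ± 0.18 (adjusted p = 0.0339). That rise lost its call when E13.5 replicate 2 or 3 or E15.5 replicate 1 or 3 was left out, with differences of 0.44 to 0.57. X-linked Ndufb11 had kept probes that disagreed, 1 at -0.26 with no call and 1 that was undetected at E13.5 and at least 1.48-fold higher at E15.5 (adjusted p = 0.0219), so no direction is given for the gene.

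Assembly factors build complex I and leave it. Ndufaf4 was at 10.41, 10.48 and 10.41 at E11.5, then 9.92, 9.90 and 10.00 at E13.5, then 8.58, 7.86 and 8.19 at E15.5, with 8.21 and 8.27 in non-germ cells. The 3 germ cell stages did not overlap, and E15.5 spanned the non-germ level. The fall from E13.5 was -1.73 ± 0.18 (adjusted p = 4.42e-05) and that from E11.5 was -2.22 ± 0.18 (adjusted p = 4.64e-06), the largest fall of any member from E11.5. Its promoter is among those printed. Ndufaf8 fell by 1.14 ± 0.18 from E13.5 (adjusted p = 0.000569). Ndufaf5, which modifies a core subunit during assembly, was at 9.42, 9.38 and 9.44 at E13.5 and then 10.36, 9.57 and 10.33 at E15.5, with replicate 2 the lowest, a rise of 0.68 ± 0.21 (adjusted p = 0.0224). Leaving out any E13.5 array, or E15.5 replicate 1 or 3, ended that call at 0.54 to 0.69. Ndufaf1, Ndufaf2, Ndufaf3 and Ndufaf7 had no call.

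Complex II is succinate dehydrogenase, shared with the citric acid cycle, and all its subunits are nuclear. The flavoprotein Sdha measured 8.77, 8.67 and 8.69 at E11.5, then 9.32, 8.99 and 9.20 at E13.5, then 8.48, 8.45 and 8.68 at E15.5, with 8.54 and 8.59 in non-germ cells. E13.5 was above all other arrays. Its rise from E11.5 was 0.46 ± 0.14 (adjusted p = 0.0481) and its fall to E15.5 was -0.63 ± 0.14 (adjusted p = 0.00518). The rise lost its call when any of the arrays other than E13.5 replicate 2 or E15.5 replicate 2 was left out, with differences of 0.38 to 0.49. The membrane anchor Sdhd, whose promoter holds NRF1, GABP and ERR letters, was at 10.08, 10.15 and 10.07 at E13.5 and then 9.54, 9.06 and 9.07 at E15.5, a fall of 0.88 ± 0.16 (adjusted p = 0.00171). The iron-sulfur subunit Sdhb differed by -0.27 ± 0.19 (adjusted p = 0.295) and the other anchor Sdhc by 0.14 ± 0.17 (adjusted p = 0.551). Subunits of a single enzyme thus differed in their calls; that difference was not tested.

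In complex III, Uqcr10 was at 12.13, 12.03 and 12.15 at E13.5 and then 10.59, 11.16 and 10.57 at E15.5, a fall of 1.33 ± 0.18 (adjusted p = 0.00021). This small subunit fell most, and replicate 2 was its highest E15.5 array. The paired core proteins moved apart. Uqcrc2 was at 10.94, 10.85 and 11.12 at E13.5 and then 9.83, 10.13 and 9.94 at E15.5, a fall of 1.01 ± 0.14 (adjusted p = 0.000323). Uqcrc1 was at 10.95, 10.48 and 10.40 at E13.5 and then at 11.27, 10.99 and 11.28 at E15.5, a rise of 0.57 ± 0.18 (adjusted p = 0.0265). That rise lost its call without E13.5 replicate 2 or 3 or E15.5 replicate 1 or 3, at 0.47 to 0.52. Uqcr11 fell by 0.76 ± 0.15 (adjusted p = 0.00243). The Rieske iron-sulfur protein Uqcrfs1 had a dim probe, at 6.80, 6.67 and 7.00 at E13.5 and then 5.68, 6.46 and 5.88 at E15.5. Its fall of 0.82 ± 0.26 (adjusted p = 0.0246) was not called without E13.5 replicate 1 or 3 or E15.5 replicate 1 or 3 (-0.67 to -0.84), and was -0.14 in the authors' rescaled table. Uqcrh and Uqcrq had no call.

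Complex IV held the largest rises of all members. The testis isoform Cox7b2 measured 7.42, 7.60 and 7.40 at E11.5, then 8.15, 7.08 and 6.97 at E13.5, then 9.94, 9.27 and 9.99 at E15.5, with 4.76 and 4.81 in non-germ cells, where it was undetected. Every E15.5 array stood above every earlier array. The rise from E13.5 was 2.33 ± 0.30 (adjusted p = 0.000166). Cox8c, a further testis isoform, measured 5.65, 5.65 and 6.56 at E11.5, where 1 of 3 arrays detected it, then 6.35, 6.39 and 6.87 at E13.5, then 8.49, 8.01 and 9.15 at E15.5, with 4.90 and 4.87, undetected, in non-germ cells. It rose by 2.01 ± 0.32 from E13.5 (adjusted p = 0.00061). Both genes were detected on all E13.5 and E15.5 germ cell arrays, and both rises were called without E15.5 replicate 2.

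The third testis isoform did not follow them. Cox6b2 was at 8.01, 7.81 and 7.87 at E11.5, then 7.59, 7.87 and 7.64 at E13.5, then 7.21, 6.60 and 6.92 at E15.5, with 6.41 and 6.55 in non-germ cells. It fell by 0.79 ± 0.18 from E13.5 (adjusted p = 0.00449), with groups that did not overlap. A second kept probe of the gene had -0.44 and no call. Its widely expressed counterpart Cox6b1 differed by -0.20 ± 0.17 (adjusted p = 0.368). Cox7b, the X-linked counterpart of Cox7b2, differed by -0.38 ± 0.28 (adjusted p = 0.305).

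**Figure D4:**
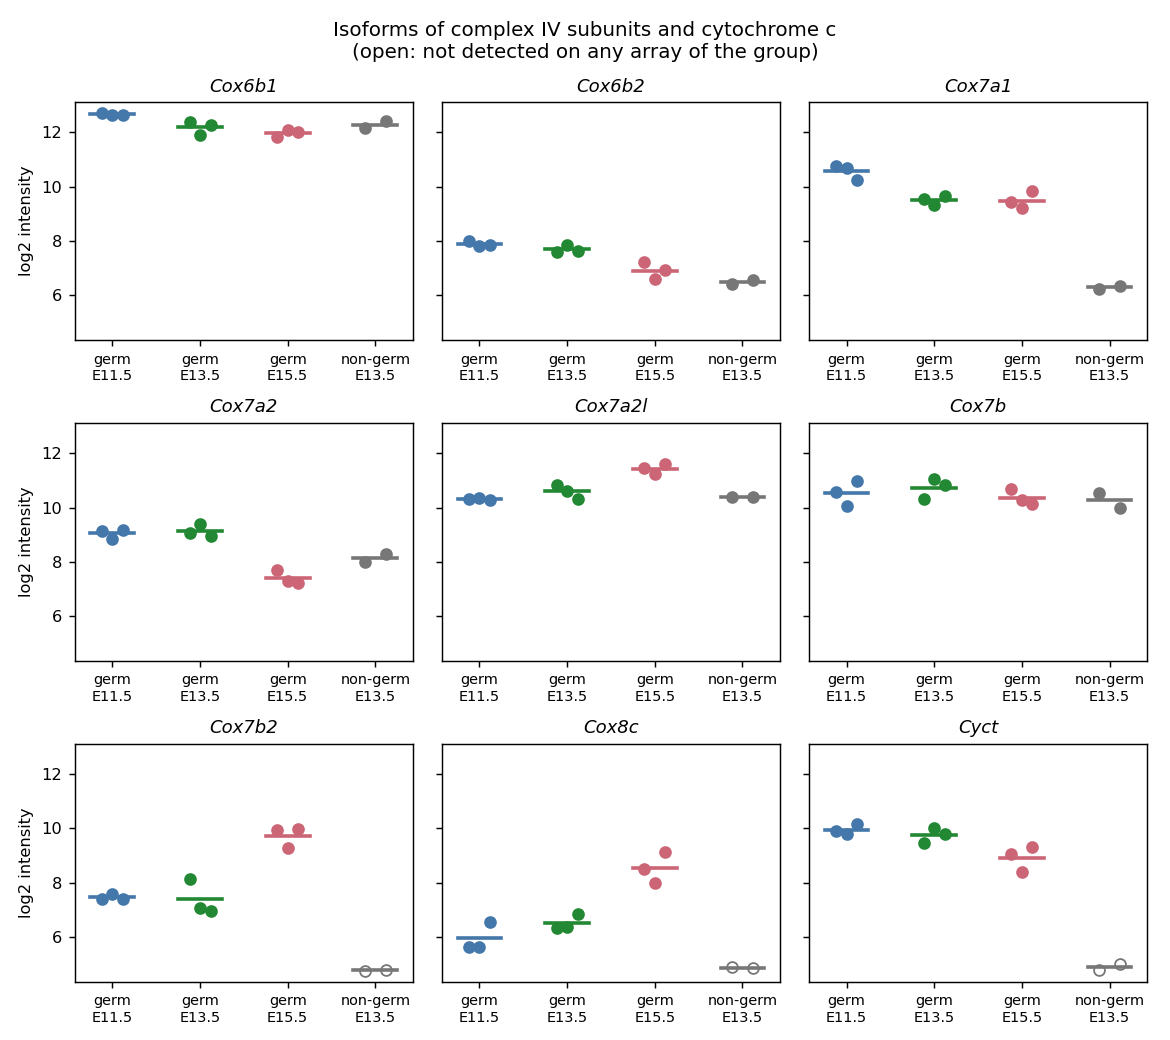
Log2 intensity (vertical axis, the same in all panels) of 8 complex IV genes and the testis cytochrome c gene Cyct on each array by group, with the group mean as a bar and open circles where no array of the group detected the gene. Cox7b2 and Cox8c rise to E15.5, Cox7a2 falls, and Cox7a1 drops from E11.5 to E13.5 and is far lower in non-germ cells.

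The Cox7a family showed 3 courses. Cox7a1, known as the isoform of heart and skeletal muscle, was at 10.76, 10.69 and 10.26 at E11.5, then 9.54, 9.33 and 9.67 at E13.5, then 9.43, 9.21 and 9.82 at E15.5, with 6.25 and 6.34 in non-germ cells. It fell by 1.06 ± 0.20 from E11.5 to E13.5 (adjusted p = 0.00428) and differed by -0.03 ± 0.20 from E13.5 to E15.5 (adjusted p = 0.931). Cox7a2, the widely expressed isoform, was at 9.13, 8.83 and 9.18 at E11.5, then 9.08, 9.39 and 8.96 at E13.5, then 7.71, 7.31 and 7.24 at E15.5, with 8.01 and 8.29 in non-germ cells. Its E15.5 arrays lay below all others, a fall of 1.72 ± 0.19 from E13.5 (adjusted p = 6.34e-05). Cox7a2l, a related protein that joins complexes III and IV into supercomplexes, was at 10.82, 10.62 and 10.33 at E13.5 and then 11.46, 11.23 and 11.61 at E15.5. It rose by 0.84 ± 0.16 (adjusted p = 0.0022), and its E11.5 arrays were at 10.33, 10.34 and 10.29 with non-germ cells at 10.39 and 10.40.

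Cox5a, a subunit on the matrix side of the enzyme, was at 11.39, 11.45 and 11.44 at E11.5, then 11.19, 11.13 and 11.31 at E13.5, then 9.97, 9.44 and 9.97 at E15.5, with 9.19 and 9.06 in non-germ cells. It fell by 1.42 ± 0.17 from E13.5 (adjusted p = 9.83e-05), with E15.5 still above non-germ cells. Cox4i1, the widely expressed isoform of the largest nuclear subunit, had no call in any of the 4 comparisons, with differences of -0.28, 0.13, -0.15 and 0.31. Cox6c fell by 0.53 ± 0.16 (adjusted p = 0.021), not called without E13.5 replicate 2 or 3 or E15.5 replicate 1 (-0.41 to -0.51). Cox5b and Cox6a1 had no call. The heart and skeletal muscle isoforms Cox6a2 and Cox8b and the lung isoform Cox4i2 were detected on 0 arrays, as was the assembly factor gene Ndufaf6.

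In complex V, all 4 genes of the peripheral stalk, which holds the catalytic head still, fell from E13.5 to E15.5. Atp5pb had the largest fall of any member. It measured 10.43, 10.33 and 10.04 at E11.5, then 10.70, 10.47 and 10.48 at E13.5, then 8.13, 9.0 and 8.39 at E15.5, with 9.39 and 9.93 in non-germ cells. E15.5 was below every other array, with replicate 2 the highest of the 3, and the fall was -2.04 ± 0.24 (adjusted p = 9.15e-05). Atp5j was at 12.53, 12.36 and 12.54 at E13.5 and on average 11.31 ± 0.17 (SD, n = 3) at E15.5, a fall of 1.16 ± 0.14 (adjusted p = 0.000133). Its 3 kept probes ranged from -1.16 to -0.49, and not all were called. Atp5h, whose promoter holds NRF1 and GABP letters, was at 9.51, 9.73 and 9.84 and then 8.63, 8.99 and 8.43, below the non-germ arrays at 9.79 and 9.86. Atp5h fell by 1.01 ± 0.17 (adjusted p = 0.00108), and Atp5o fell by 0.56 ± 0.14 (adjusted p = 0.00976).

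Of the 5 genes of the catalytic head and central stalk, 4 fell and 1 rose. Atp5c1, the rotating gamma subunit, was at 11.40, 11.58 and 11.49 at E13.5 and then 10.43, 10.58 and 10.31 at E15.5, a fall of 1.05 ± 0.14 (adjusted p = 0.00019). The alpha and beta subunits Atp5a1 and Atp5b, which form the catalytic ring, fell by 0.64 ± 0.13 (adjusted p = 0.00279) and 0.60 ± 0.13 (adjusted p = 0.00467). Atp5e, the epsilon subunit, fell by 0.63 ± 0.16 (adjusted p = 0.00828). Atp5d, the delta subunit of the same stalk, measured 10.31, 9.78 and 9.75 at E13.5 and then 10.76, 10.56 and 11.08 at E15.5, a rise of 0.86 ± 0.20 (adjusted p = 0.00672). Its E11.5 arrays were at 10.63, 10.60 and 10.24, and E15.5 against E11.5 was 0.31 ± 0.20 (adjusted p = 0.235).

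Among 5 small membrane subunits, Atp5md, which is needed for stable dimers of the enzyme, fell most. It was at 10.29, 10.40 and 10.69 at E13.5, then 8.42, 8.81 and 9.03 at E15.5, with 9.56 and 9.68 in non-germ cells, a fall of 1.70 ± 0.19 (adjusted p = 6.09e-05). Atp5k fell by 1.05 ± 0.17 (adjusted p = 0.000819), and Atp5j2, Atp5l and Atp5mpl had no call. Of the proton-carrying ring, Atp5g2 fell by 0.60 ± 0.17 (adjusted p = 0.0158), which was not called without E13.5 replicate 1 (-0.50). Atp5g3 differed by -0.30 ± 0.12 (adjusted p = 0.0724).

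**Figure D5:**
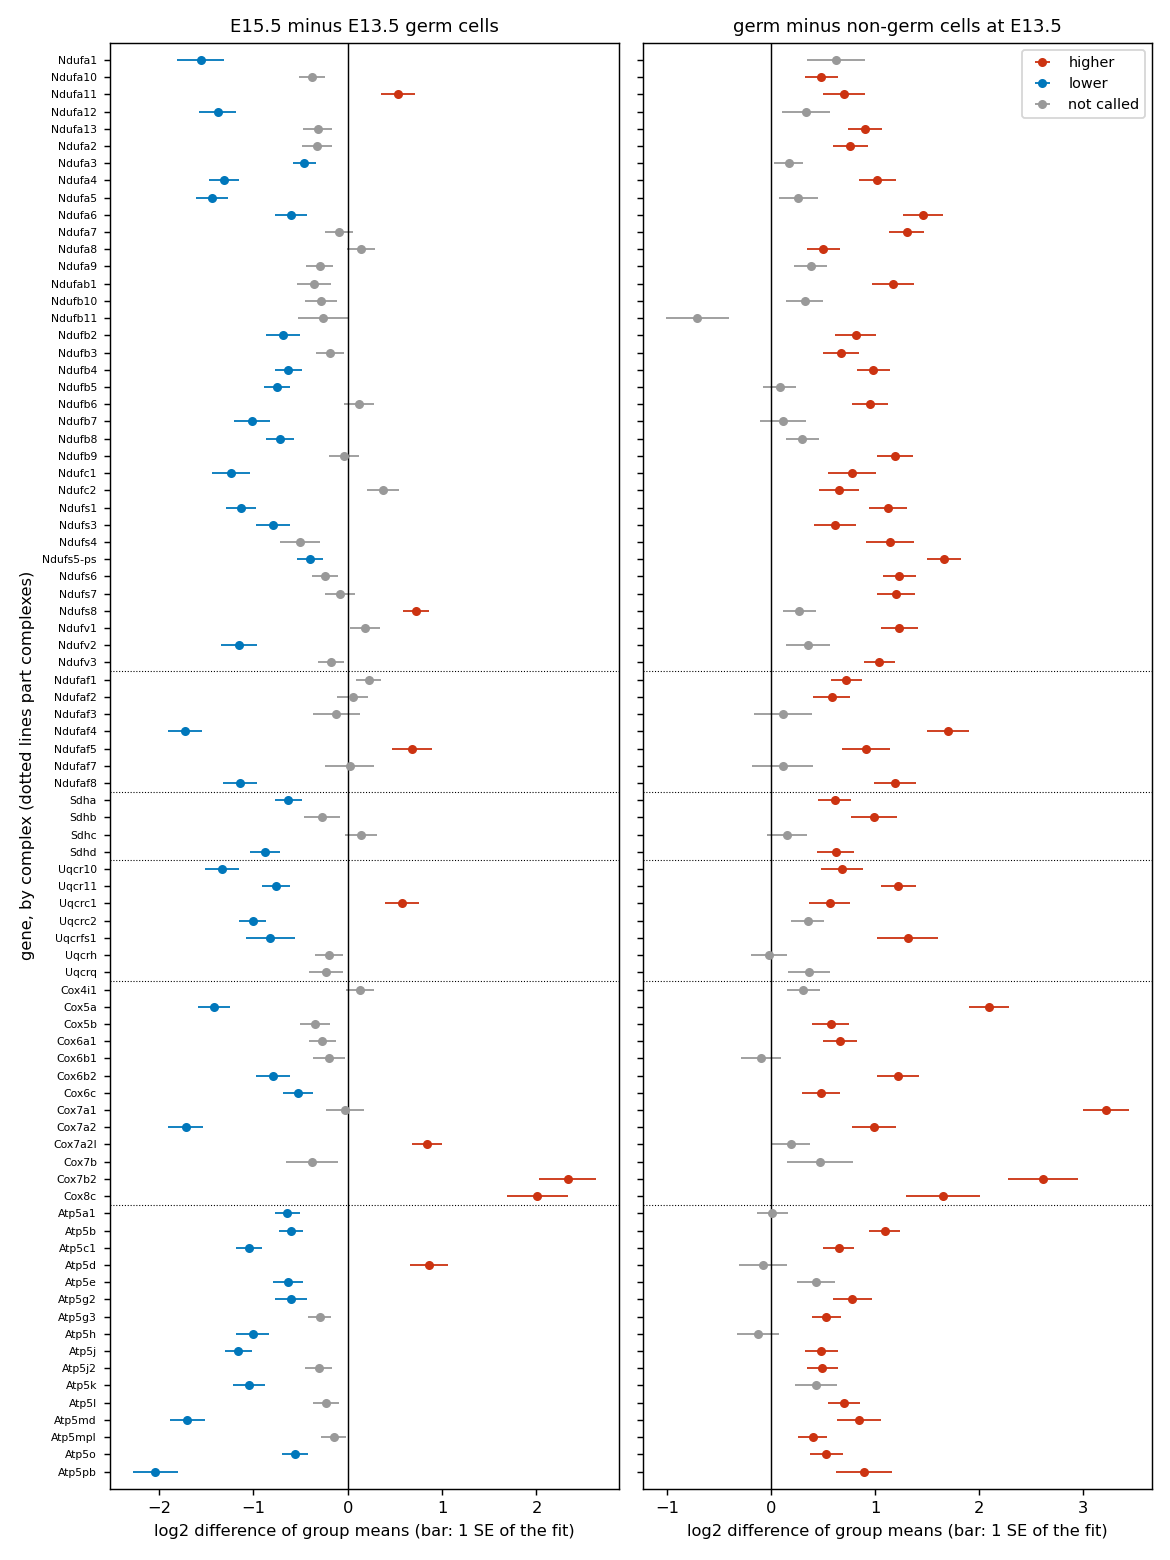
Log2 difference of group means (horizontal axis, bars of 1 SE of the fit) for each of the 83 members (rows, by complex), with E15.5 minus E13.5 germ cells on the left and germ minus non-germ cells at E13.5 on the right. The left differences run from -2.04 to 2.33 and the right ones from -0.71 to 3.22, and both use the E13.5 germ cell arrays.

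Across the whole interval from E11.5 to E15.5, 49 members fell (59%) and 4 rose (4.82%), against 24.2% and 25.7% of all genes, with a median of -0.55 against 0.03. Without E15.5 replicate 2 the counts were 46 and 8, against 24.8% and 26.7% of all genes, and the median was -0.51. The added rises without that array were those of Ndufv1, Ndufaf1, Ndufaf5 and Uqcrc1. By complex the falls were 20 of 36 in complex I, 1 of 4 in complex II, 5 of 7 in complex III, 8 of 13 in complex IV and 13 of 16 in complex V. Groups did not overlap for 58 members that were lower and 7 that were higher at E15.5, against 27% and 28.3% of all genes. The risers were Ndufs8, Cox7a2l, Cox7b2 and Cox8c. Ndufb7 was at 9.98, 9.81 and 9.61 at E11.5, then 9.15, 8.77 and 8.97 at E13.5 and then 7.57, 8.12 and 8.15 at E15.5, with no overlap between stages. This supernumerary subunit fell by 1.85 ± 0.19 over the interval (adjusted p = 2.4e-05).

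From E11.5 to E13.5 there were 2 rises (2.41%) and 3 falls (3.61%), against 10.8% and 7.94% of all genes, with a median of -0.14 against 0.01. The count of falls depended on the processing. It was 10 without background correction, against 9.43% of all genes, 13 in the authors' rescaled values, against 9.75%, and 9 with array weights. With array weights the share of members that fell was below that of all genes. The rises were Sdha, described above, and Ndufv3, a small subunit of the NADH-binding arm, at 0.44 ± 0.14 (adjusted p = 0.0494). The falls were Cox7a1, Ndufb7 at -0.83 ± 0.19 (adjusted p = 0.0129) and Atp5j at -0.47 ± 0.14 (adjusted p = 0.045). The calls of Ndufv3 and Atp5j were lost without any of the E11.5 or E13.5 arrays, at 0.37 to 0.47 and at -0.41 to -0.50, and that of Ndufb7 without E11.5 replicate 1 (-0.74) or E13.5 replicate 2 (-0.73). Without E15.5 replicate 2, which enters only the spread and the scaling, there were 3 rises and 5 falls, against 13.4% and 10.9% of all genes. Over all arrays left out in turn the rises numbered 0 to 3 and the falls 1 to 5, with 0 rises without any E11.5 array, E13.5 replicate 1 or 3, E15.5 replicate 1 or either non-germ array, 1 rise without E13.5 replicate 2 or E15.5 replicate 3, and 1 fall without E11.5 replicate 1 or E13.5 replicate 2. Groups did not overlap for 30 members that were lower and 8 that were higher at E13.5, against 19% and 21.9% of all genes. Complex I assembly factors and complex III had no call, and their smallest adjusted p belonged to Ndufaf4 (-0.49 ± 0.18, adjusted p = 0.083) and Uqcrfs1 (0.64 ± 0.26, adjusted p = 0.112).

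In the comparison of cell types at E13.5, 56 members (67.5%) were higher in germ cells and 0 were lower, against 30.8% and 26.2% of all genes, with a median of 0.65 against 0.12. Brighter genes leaned to the germ cells in general. Of the 1885 genes with a mean of at least 10, 40.5% were higher and 15.9% lower, with a median of 0.29. Of the 45 members at that level 66.7% were higher, with a median of 0.57. Of the 38 dimmer members 68.4% were higher, against 28.9% of dimmer genes. At least 2-fold, 22 members were higher and 0 lower, against 18.6% and 19.6% of all genes. At an unadjusted p below 0.05 in limma, 59 members were higher and 1 was lower, against 3862 and 3256 of all 11598 genes. Groups did not overlap for 67 members that were higher and 1 that was lower in germ cells, against 40.6% and 34% of all genes. Without E15.5 replicate 2, 58 members were higher and 1 was lower, against 32.4% and 27.8% of all genes. The lower one was Ndufb11, at -0.72 (adjusted p = 0.0451). With cyclic loess in place of quantile scaling, 33 members were higher and 1 lower, and all genes split into 22.7% higher and 33.3% lower. That scaling moved the median of all genes to -0.12 and of the members to 0.33, so that the members stood 0.45 above all genes, against 0.53 with quantile scaling. All 56 kept their sign under it. Leaving out non-germ replicate 1 left 39 members higher.

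The non-germ fraction is not a single cell type, and 5 erythroid markers averaged 12.46 and 9.81 on its arrays. The germ cell arrays of E13.5 had 5.25, 5.62 and 5.48 on that list. The part of such cells in the differences was not tested.

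By complex, 24 of 36 complex I genes, 5 of 7 assembly factors, 3 of 4 complex II genes, 4 of 7 complex III genes, 9 of 13 complex IV genes and 11 of 16 complex V genes were higher in germ cells, with medians of 0.73, 0.72, 0.61, 0.56, 0.66 and 0.51. The share over all genes was 30.8%, with a median of 0.12. Cox7a1 had the largest difference. It was at 9.54, 9.33 and 9.67 in germ cells and 6.25 and 6.34 in non-germ cells, 3.22 ± 0.22 higher (adjusted p = 1.97e-06). Cox5a followed among genes detected in both, at 2.09 ± 0.19 (adjusted p = 9.63e-06). Against non-germ cells without detection, E13.5 germ cells had at least 2.99-fold more Cox7b2, at least 2.01-fold more Uqcrfs1 and at least 1.64-fold more Cox8c, with adjusted p of 9.08e-05, 0.00264 and 0.00248 in the fit. Each bound sets the mean of the germ cells against the detection limit, the dimmest detected probe of every non-germ array. The bounds apply to the background-corrected levels used here and not to other settings. Over 21 settings the log2 difference was as low as 0.66 for Cox7b2, 0.28 for Uqcrfs1 and 0.36 for Cox8c, smaller than the bounds. Cox6b2 was 1.22 ± 0.20 higher in germ cells (adjusted p = 0.000393), and its second probe was undetected in non-germ cells.

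In complex I the leading differences were those of Ndufs5-ps, Ndufa6, Ndufa7 and Ndufs6. Ndufs5-ps is annotated as a copy of Ndufs5, so its probe may read both. It was at 10.19, 10.08 and 10.18 in germ cells and 8.31 and 8.67 in non-germ cells, 1.66 ± 0.16 higher (adjusted p = 1.49e-05). Ndufa6 was 1.46 ± 0.19 higher (adjusted p = 0.000111), Ndufa7 1.30 ± 0.17 higher (adjusted p = 9.78e-05) and Ndufs6 1.23 ± 0.16 higher (adjusted p = 8.37e-05). Ndufaf4 was 1.70 ± 0.20 higher (adjusted p = 4.9e-05), Ndufaf8 1.19 ± 0.20 (adjusted p = 0.0005) and Ndufaf5 0.91 ± 0.23 (adjusted p = 0.00623). The call of Ndufaf5 was lost without non-germ replicate 2 (0.82).

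In complex II, Sdhb was 0.99 ± 0.22 higher (adjusted p = 0.00266), Sdhd 0.62 ± 0.18 (adjusted p = 0.0147) and Sdha 0.61 ± 0.16 (adjusted p = 0.00778), while Sdhc had 0.15 ± 0.19 (adjusted p = 0.548). In complex III, Uqcr11 was 1.22 ± 0.17 higher (adjusted p = 0.000148), Uqcr10 0.68 ± 0.20 (adjusted p = 0.0137) and Uqcrc1 0.56 ± 0.20 (adjusted p = 0.0338). In complex V, Atp5b was 1.09 ± 0.15 higher (adjusted p = 0.000135), at 12.50, 12.73 and 12.59 against 11.54 and 11.49. Its partner in the catalytic ring, Atp5a1, had 0.01 ± 0.15 (adjusted p = 0.949), at 12.51, 12.45 and 12.56 against 12.51 and 12.48. The difference between these 2 probes was not tested. Atp5pb was 0.89 ± 0.27 higher (adjusted p = 0.0148), Atp5md 0.84 ± 0.21 (adjusted p = 0.00548) and Atp5g2 0.78 ± 0.19 (adjusted p = 0.00477). With cyclic loess the calls of Sdha (0.29), Sdhd (0.33), Uqcrc1 (0.25), Uqcr10 (0.40), Cox6a1 (0.34), Atp5md (0.56), Atp5pb (0.62) and Atp5g3 (0.30) were lost. Without non-germ replicate 1 those of Sdhd (0.52), Uqcr10 (0.57), Uqcrc1 (0.65), Atp5pb (0.62) and Atp5g3 (0.48) were lost. That of Uqcrc1 was also lost without E13.5 replicate 1 (0.39) or non-germ replicate 2 (0.49).

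Members higher in germ cells at E13.5 took different courses afterwards. Of the testis isoforms higher in germ cells, Cox7b2 and Cox8c rose to E15.5 and Cox6b2 fell. Ndufs8, Cox7a2l and Atp5d rose to E15.5 without a call between the cell types at E13.5. Ndufa5, Ndufa12 and Atp5h lay below both E13.5 non-germ arrays on every E15.5 germ cell array, which differ from them in stage too. They did not pass the test between cell types at E13.5, with 0.26 ± 0.19, 0.33 ± 0.23 and -0.13 ± 0.20. These comparisons share the E13.5 germ cell arrays.

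Of 28 members with more than 1 kept probe, the calls of the probes differed for 9 from E13.5 to E15.5, for 7 from E11.5 to E15.5, for 5 between cell types and for 2 from E11.5 to E13.5. No gene had probes called in opposite directions. In the E13.5 to E15.5 comparison the signs differed for Ndufb11 and Ndufb6, and calls differed for Atp5a1, Atp5j, Atp5o, Cox6b2, Ndufab1, Ndufaf5, Ndufs4 and Ndufs6 as well. Between cell types, probes of Atp5j ran from -0.55 to 0.48 and those of Atp5a1 from -0.53 to 0.01. Just inside the detection limit stood a probe of Atp5j on 4 arrays and Ndufaf3 on 6 arrays, and just outside it a probe each of Atp5pb and Ndufb8 on 1 array. All 11 arrays detected 77 of the 83 members.

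Genes that serve the complexes were taken from lists by textbook role, chosen with earlier results of these data known. The 3 cytochrome c and c1 genes all fell from E13.5 to E15.5 and were all lower in the non-germ cells, and all 3 also fell without E15.5 replicate 2. Of all genes 21.4% fell over that interval and 30.8% were higher in germ cells at E13.5. Cyc1, the cytochrome of complex III, was at 9.44, 9.46 and 9.46 at E13.5 and then 8.07, 8.24 and 8.62 at E15.5, a fall of 1.14 ± 0.20 (adjusted p = 0.00114). The cytochrome c genes Cycs and Cyct, the latter the testis form, fell by 0.55 ± 0.14 (adjusted p = 0.0109) and 0.84 ± 0.24 (adjusted p = 0.0175). Cyct measured 9.92, 9.78 and 10.17 at E11.5, then 9.47, 10.00 and 9.80 at E13.5, then 9.05, 8.38 and 9.30 at E15.5, with 4.78 and 5.03, undetected, in non-germ cells. It was at least 15.3-fold higher in E13.5 germ cells than in non-germ cells (adjusted p = 4.35e-07). All 9 germ cell arrays detected Cyct, and it fell while Cox7b2 and Cox8c rose.

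Of 13 subunits encoded by the mitochondrial genome, 8 were among the genes tested, under the array's symbols ND1, ND4, ND4L, ND5, ND6, CYTB, COX2 and ATP6. They make the membrane core of complex I, cytochrome b of complex III, a catalytic subunit of complex IV and the proton channel of complex V. In limma, 0 of the 8 were called in any of the 4 comparisons, and at an unadjusted p below 0.05 there was 1, lower at E13.5 than at E11.5. Of all genes 21.4% fell and 21.2% rose from E13.5 to E15.5. Over that interval the median difference of the 8 was -0.12 and the range -0.32 to 0.18. Between cell types the median was 0.03 and the range -0.11 to 0.12. Examples were chosen after their values were seen. ATP6 was at 13.12, 13.06 and 13.13 at E13.5 and then 12.98, 13.06 and 13.07 at E15.5, with 13.08 and 13.15 in non-germ cells. CYTB was at 13.07, 12.70 and 12.89 and then 12.97, 12.74 and 12.39, with 12.90 and 12.78 in non-germ cells. The groups of both genes overlapped. ATP6 differed by -0.06 ± 0.12 from E13.5 to E15.5 (adjusted p = 0.711) and CYTB by -0.19 ± 0.20 (adjusted p = 0.487). Both probes were bright, in the range of the bright member Atp5j2, which ran from 12.55 to 13.37. Whether the top of the intensity scale narrowed the differences of such probes was not tested, so these values do not show that mitochondrial RNA stayed the same. The difference between mitochondrial and nuclear genes was not tested.

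Of 37 measured assembly factors, of complexes II to V and further ones of complex I, 17 fell from E13.5 to E15.5 and 0 rose, and at an unadjusted p below 0.05 in limma 19 fell and 1 rose. Of all genes 21.4% fell and 21.2% rose, and without E15.5 replicate 2, 15 assembly factors fell and 0 rose. Cox18, which inserts a complex IV subunit into the membrane, had -1.86, and Uqcc1, a complex III factor, -1.74. Between cell types 16 were higher in germ cells and 1 was lower, against 30.8% and 26.2% of all genes. Lrpprc and Uqcc2 led with 1.91 each, and Cox19 had -0.93.

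Of 20 regulators of mitochondrial biogenesis and of mitochondrial DNA, 9 fell from E13.5 to E15.5 and 0 rose, with 9 and 2 at an unadjusted p below 0.05 in limma, while 13 were higher and 2 lower in the germ cells at E13.5. The shares of all genes were 21.4% and 21.2% for the first comparison and 30.8% and 26.2% for the second. Without E15.5 replicate 2, 8 regulators fell and 0 rose. Esrrb, an estrogen-related receptor that also serves pluripotency, was at 12.22, 11.98 and 12.12 at E11.5, then 11.68, 11.39 and 11.81 at E13.5, then 9.25, 8.79 and 9.26 at E15.5, with 5.85 and 5.49 in non-germ cells. It fell by 2.53 ± 0.19 from E13.5 (adjusted p = 6.59e-06). Tfb1m, a methyltransferase of mitochondrial ribosomal RNA, was undetected at E15.5 and at least 2.16-fold lower there than at E13.5 (adjusted p = 0.000431). From E11.5 to E13.5 Esrra fell by 1.25 ± 0.17 (adjusted p = 0.000611) and Gabpa by 1.08 ± 0.27 (adjusted p = 0.019). Nrf1 differed between germ and non-germ cells by -0.87 ± 0.18 (adjusted p = 0.00219). Esrrg was undetected in E13.5 germ cells and at least 1.32-fold lower there (adjusted p = 0.0315).

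Of 12 citric acid cycle genes, 6 fell from E13.5 to E15.5 and 0 rose in limma, with the same counts at an unadjusted p below 0.05, and 5 fell without E15.5 replicate 2. Of all genes 21.4% fell and 21.2% rose. Suclg2, a subunit of succinyl-CoA synthetase, had -2.12, and Idh3a, a subunit of isocitrate dehydrogenase, -1.58. Like Sdha, Idh3a had risen before, by 0.83 from E11.5 to E13.5. Between cell types 3 of the 12 were higher in germ cells and 0 were lower, against 30.8% and 26.2% of all genes. The median there was 0.29. In coenzyme Q synthesis, 3 of 10 genes fell and 2 rose from E13.5 to E15.5, with Coq10b at 1.35 and Coq10a at -0.65, and 6 were higher in germ cells, against 30.8% of all genes. The falls and rises were near the shares of all genes, 21.4% and 21.2%. Without E15.5 replicate 2, 2 fell and 2 rose.

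Of 4 measured carriers of ATP, ADP and phosphate, 3 fell and 1 rose from E13.5 to E15.5, and 2 fell and 1 rose without E15.5 replicate 2. Of all genes 21.4% fell and 21.2% rose. Slc25a4 and Slc25a5 fell from E13.5 to E15.5 by 0.70 ± 0.22 (adjusted p = 0.0261) and 0.64 ± 0.14 (adjusted p = 0.00426), as did the phosphate carrier Slc25a3, by 0.69 ± 0.19 (adjusted p = 0.0147). Slc25a31, known from the testis, was at 9.06, 9.23 and 9.25 at E11.5, then 9.80, 9.91 and 9.93 at E13.5 and then 11.01, 10.08 and 10.47 at E15.5. It rose by 0.64 ± 0.21 from E13.5 (adjusted p = 0.0309), and the 3 stages did not overlap. Non-germ cells, at 4.99 and 5.01, did not detect it, and E13.5 germ cells were at least 16.7-fold higher (adjusted p = 1.9e-07).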

How the data were processed

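Each of 11 BeadChip arrays measured RNA of 1 sorted sample, extracted with a PicoPure kit and amplified with an Ovation V2 kit per the labels' protocols. The deposited table gives a signal intensity and a detection p-value per probe, not normalized by the authors. A second deposited table of intensity values follows those signals along a straight line on each array; how it was rescaled is not given in the sources used here. The number of arrays limits the precision.

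From these, limma 3.58.1 in R 4.3.3 gave log2 levels (neqc, offset 16, with background taken from the detection p-values, then quantile normalization). Of 45281 probes, 34885 have 1 gene symbol in the platform annotation, 18 have several and 10378 have no entry; 3792 kept probes of the latter kinds were left out. Symbols can be old: 99.8% of the named probes' Entrez numbers are in the reference. A single linear model of the 4 group means was fitted over 11598 genes (lmFit, eBayes, 7 residual degrees of freedom, Benjamini-Hochberg adjustment). All 4 comparisons share that fit, and those with the E13.5 germ cells share its arrays.

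Where every array of a group missed detection, the lowest detected level on each array served as the bound. Such bounds apply to the background-corrected levels used here. The genes named were, per complex and comparison, up to 4 rises and 4 falls, with isoform families, complex II and genes with discordant probes; others were added after their values were seen. The members and the gene lists were chosen with earlier results of these data known. Same-numbered replicates correlated at -0.11 to 0.13 over 15 pairs, 1 of them over 0.1, so the numbers were not taken to pair samples. On simulated data, 45% of genes changed by 1 on the log2 scale and 92% of those changed by 2 were recovered from E13.5 to E15.5, among 11598 genes. Alternatives in scaling, background, probe choice, filter, weights, block and arrays were tried.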

Additional observations from a re-analysis of the deposited data

How the results depend on the processing

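Leaving out arrays in turn gave, from E11.5 to E13.5, 0 to 3 members higher and 1 to 5 lower with medians of -0.17 to -0.12. From E13.5 to E15.5 it gave 5 to 9 and 35 to 39 with -0.42 to -0.34, and from E11.5 to E15.5, 4 to 8 and 45 to 49 with -0.56 to -0.51. Between cell types it gave 39 to 58 higher and 0 to 1 lower with 0.62 to 0.69. With cyclic loess, 1 member was higher and 5 lower from E11.5 to E13.5, 8 were higher from E11.5 to E15.5, 33 were higher and 1 lower between cell types, and the medians were -0.27, -0.48 and 0.33 for the latter 3 comparisons in turn. Without background correction, 10 were lower from E11.5 to E13.5 and 8 higher from E11.5 to E15.5, with medians of -0.31, -0.44 and 0.49 for the same 3 comparisons. In the authors' rescaled values, 13 members were lower from E11.5 to E13.5, with medians of -0.33, -0.50 and 0.60. Array weights gave 9 lower from E11.5 to E13.5, a smaller share than that of all genes. They also gave 8 higher from E11.5 to E15.5 with a median of -0.49, and 1 lower between cell types. From E11.5 to E13.5, 0 were higher with no detection filter, with every kept probe and with a replicate block, and 1 with the mean of a gene's probes. With only the groups compared, 0 were higher and 5 lower there, and 1 was lower between cell types, as with the mean of probes. Leaving out E15.5 replicate 2 with a replicate block, chosen after seeing the data, gave 7 higher from E11.5 to E15.5 and a median of -0.50. The replicate number was not taken to pair the samples, and the low correlations of same-numbered replicates cannot exclude pairing. The cause of these differences was not tested. Of 89 named changes past the threshold, 68 passed it under all alternatives run, 21 lost it under at least 1, and 0 reversed. The slide as a block was not run, since the slide is not named in the sources used here. The probe of Uqcrfs1 was detected on 7 of 11 arrays.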
